A study of Mus musculus with 24 samples.

Results

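Gene expression in the heart was compared with that in white fat, the tissue that stores triglyceride, in wild-type mice. The comparison used 7 arrays, 3 of heart (replicates 1 to 3) and 4 of white fat (replicates 1 to 4), out of 24 in the series, and they were chosen by tissue and genotype as labelled. Wild-type heart array 4 was left out because many probes had lost their signal on it. All animals were males of the C3HeB/FeJ strain aged 117 days. The series as a whole sets such mice against heterozygotes of an Ednra allele, the gene of the type A endothelin receptor, in heart, bone and white fat, and the title gives the allele as made by chemical (ENU) mutagenesis. The wild-type groups carry no labelled mutation or treatment. The labels give no fat depot, and they name whole tissues, so that each level is a mixture over cell types, in which fewer cells of a type and less RNA per cell cannot be told apart. The hearts came from other animals than the white fat, so the animals' cohort and the tissue cannot be told apart. One of the white fat arrays (replicate 3) carries a mouse number that also stands under a heterozygote.

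As background, the heart beats without rest and draws most of its energy from the oxidation of fatty acids in densely packed mitochondria. The force comes from sarcomeres, arrays of thick myosin and thin actin filaments, which calcium released from the sarcoplasmic reticulum switches on at each beat. White adipocytes take up or make fatty acids, esterify them to triglyceride and keep them in 1 large droplet, from which hormone-controlled lipases release them again. They also secrete hormones such as leptin and adiponectin. Both tissues further hold capillary endothelium, fibroblasts, smooth muscle, macrophages and a mesothelial covering.

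Each array reads a gene through 1 or several bead probes, and a level is the log2 of the normalized intensity, on a scale that ran from 4.28 to 14.86. A difference is heart minus white fat on that scale, positive where the heart was higher. Heart arrays detected 11467 to 11933 probes and white fat arrays 13103 to 13710, with mean raw intensities of 368 to 418 and 702 to 820, so brightness before normalization went with tissue. The left-out heart array detected 9931, and it missed 1719 (16.2%) of the 10622 probes that the other 3 all detected. Pearson correlations between arrays over all probes were 0.990 to 0.993 within heart, 0.970 to 0.994 within white fat and 0.730 to 0.755 between the tissues.

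The tissues differed at most of the genes measured. Of 9510 genes tested, 7219 (75.9%) passed an adjusted p of 0.05 in limma's moderated test. Of the genes tested, 3805 (40.0%) were higher in heart and 3414 (35.9%) higher in white fat. At least a 2-fold difference was found for 1823 genes (19.2%) in favour of heart and 1754 (18.4%) in favour of white fat, and at least an 8-fold difference for 263 and 300. The arrays of the tissues did not overlap for 7138 genes (75.1%). The balance of directions depended on the scaling. Of the calls, 52.7% were higher in heart, against 35.5% with each array scaled to its median, 41.4% with arrays scaled to ribosomal protein genes and 12.5% with the authors' own tissue-wise scaled values. The median difference over all genes moved from 0.04 to -0.30, -0.16 and -1.19 in these, and small differences are relative to such a shift.

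Group counts below are over the 7391 genes detected on at least 3 arrays of each tissue, except where genes measured through 1 tissue are named as such. The others passed the filter through 1 tissue, as a rule the one in which they are brighter, which favours a difference, although 618 of these 2119 were not called. Of the 7391 genes detected in both tissues, 45.3% were higher in heart and 32.0% in white fat. By at least 2-fold, 19.7% and 14.6% were, and the median difference of the 7391 was 0.19. The others comprise 430 genes that reached 3 arrays in heart alone and 1689 that did so in white fat alone, and these may still have been detected on 1 or 2 arrays of the other tissue. Where a gene was detected on no array of a tissue its fold is given as a lower bound, against the dimmest level counted as detected there.

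**Figure D1:**
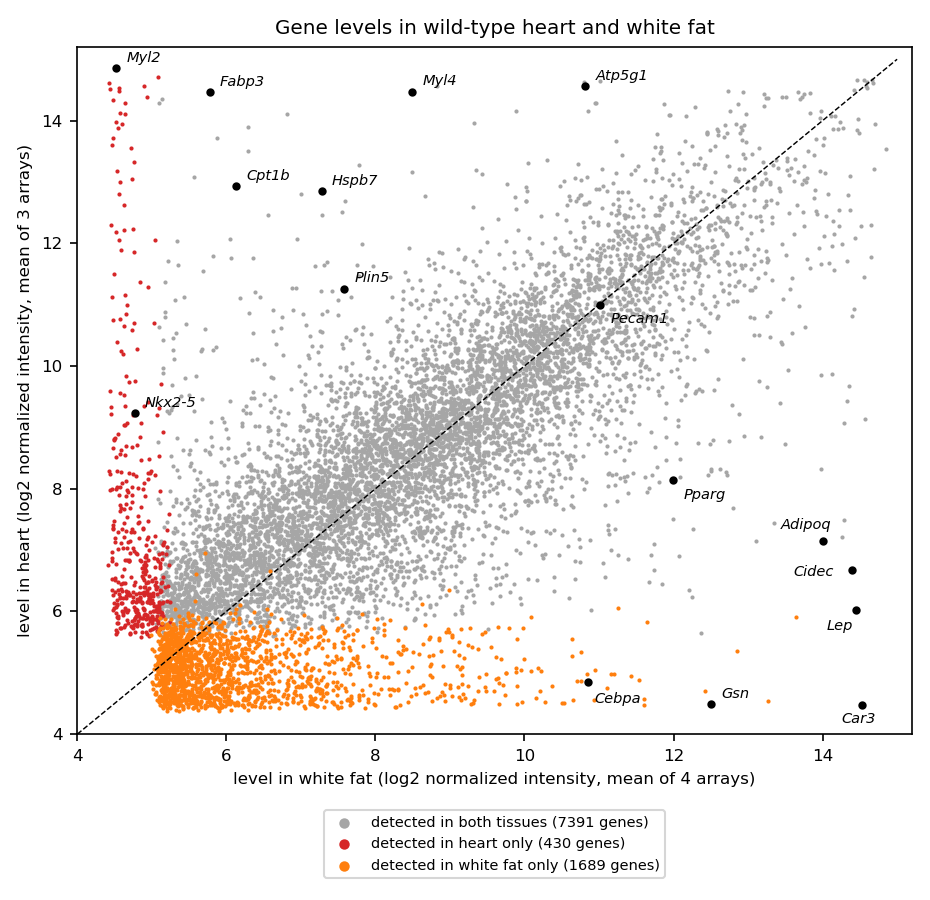
Mean level of 9510 genes in wild-type white fat (horizontal, 4 arrays) and wild-type heart (vertical, 3 arrays), as log2 normalized intensity. Grey points are genes detected on at least 3 arrays of both tissues, red points of heart only and orange points of white fat only, the dashed line marks equal levels, and black points are named. Myl2 lies at the top left and Car3 at the bottom right, while Pecam1 lies on the line.

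Some probes read background in 1 tissue and were bright elsewhere, which touches low levels in heart and in white fat alike. Eef2, the elongation factor that every cell uses, was picked out after its values were seen. Its 3 probes averaged 4.87, 4.99 and 4.59 in heart, where no array detected any of them, and 10.7, 9.44 and 10.3 in white fat. Wild-type bone read the same probes at 10.6, 9.25 and 9.92. Actb, which encodes cytoplasmic beta-actin and was also chosen after its values were seen, had 5 kept probes with differences from -7.26 to 7.83. Its probes averaging 12.5 and 12.6 in heart read 4.67 and 4.80 in white fat and 7.32 and 7.61 in bone. Another read 4.47 in heart and 11.7 in white fat. Among 2496 genes with several kept probes, 431 (17.3%) had 1 probe called higher in heart and another called higher in white fat, and for 622 genes 1 probe was detected on all 3 heart arrays and another on none. Of 2350 probes that were among the brightest in both white fat and bone (upper quartile in each), 16 (0.681%) were detected on no wild-type heart array. Of these, 7 were detected on none of the 7 heart arrays used of either genotype. Of 2295 among the brightest in both heart and bone, 22 (0.959%) were detected on no wild-type white fat array. For 2402 among the brightest in both heart and white fat, 2 (0.0833%) were detected on no wild-type bone array. What part such probes have in the single differences was not tested, and for genes given with values, other kept probes are given where they differ from the first by over 1 log2 unit or in sign.

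Sarcomere genes were among those with the largest differences in favour of heart. Myl2, the regulatory light chain of ventricular myosin, had the brightest probe on all 3 heart arrays, at 14.86, 14.86 and 14.86, and read 4.46, 4.59, 4.61 and 4.43 in white fat, where no array detected it. The groups stood at opposite ends of the scale, a difference of 10.33 or at least 888-fold. Quantile normalization gives the brightest probe of every array the same value, so the equal heart levels do not measure spread. Myl2 passed the filter through heart alone, which favours a difference. Myh6, the adult mouse heart's main motor myosin, read 14.45, 14.53 and 14.49 against 4.65, 4.51, 4.54 and 4.53, at least 689-fold higher. Its second, dimmer probe differed by 6.22. Mybpc3, the cardiac protein C that trims myosin activity, was at least 482-fold higher in heart, and titin (Ttn), the spring of the sarcomere, at least 453-fold. Of 11 thick filament genes on the array 9 were measured, 7 of them through heart alone. The other 2, Myl4 and Myom1, which encodes the M-line protein myomesin, were detected in both tissues and higher in heart.

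Atrial forms were bright as well. Myl7, the atrial regulatory light chain, read 13.55, 13.56 and 12.86 in heart and was at least 307-fold higher than in white fat. Sln (sarcolipin), an atrial inhibitor of the calcium pump, read 14.05, 13.92 and 13.19. For both genes heart array 3 was the lowest of the 3. Myl4, the atrial essential light chain, read 14.59, 14.60 and 14.23 in heart and 8.44, 8.59, 8.61 and 8.32 in white fat, where all 4 arrays detected it, a 63.2-fold difference.

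Thin filament and Z-disc genes followed. Of 9 detected in both tissues, 8 were at least 2-fold higher in heart and 1 was higher in white fat, with a median difference of 4.33. Ankrd1, a stress-responsive partner of titin, differed by 9.18 ± 0.08 (SE, adjusted p = 1.58e-12, limma). Desmin (Des), the intermediate filament of muscle, differed by 5.80, and Acta1, the skeletal form of alpha-actin, by 2.39. Among those detected in heart only or nearly so, Tnnc1, the calcium sensor of the thin filament, read 14.70, 14.68 and 14.73 against 4.90, 4.83, 5.38 and 5.23, where 2 of 4 arrays detected it. Tnni3, the cardiac inhibitory troponin, was at least 144-fold higher, Csrp3 (muscle LIM protein) at least 618-fold (its other 2 probes differed by 8.37 and 9.51), Tcap (telethonin, the cap of titin) at least 599-fold and Actn2, the actinin of the Z-disc, at least 531-fold. The exception was Tpm1, a tropomyosin made in many cell types by alternative splicing, at 10.45, 10.37 and 10.42 in heart and 11.36 to 11.77 in white fat. The array's 1 kept Tpm1 probe does not show which splice form it reads.

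Actc1, cardiac alpha-actin, read 14.38, 14.39 and 14.39 in heart and 4.93, 4.70, 5.15 and 4.94 in white fat, where 1 of 4 arrays detected it. Its promoter and that of Myl3, the ventricular essential light chain (at least 708-fold higher in heart), are shown because these sarcomere genes moved together and both hold the CArG box, the motif known for binding serum response factor. The sequences are the 250 bases before the gene's start in RefSeq, 5′ to 3′ on the gene's strand, at chr2:114052876-114053125 (minus strand) for Actc1 and chr9:110763428-110763677 (plus strand) for Myl3, build GRCm38.p6. Capitals mark the CArG box, 47 and 85 bases before the start, and in Myl3 also CATTCC on either strand, the core known for TEAD factors.

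Actc1: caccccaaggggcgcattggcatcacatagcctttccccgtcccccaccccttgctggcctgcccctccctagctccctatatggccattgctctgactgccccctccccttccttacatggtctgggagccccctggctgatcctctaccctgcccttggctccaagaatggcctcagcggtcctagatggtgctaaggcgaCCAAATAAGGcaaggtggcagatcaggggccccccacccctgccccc

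Myl3: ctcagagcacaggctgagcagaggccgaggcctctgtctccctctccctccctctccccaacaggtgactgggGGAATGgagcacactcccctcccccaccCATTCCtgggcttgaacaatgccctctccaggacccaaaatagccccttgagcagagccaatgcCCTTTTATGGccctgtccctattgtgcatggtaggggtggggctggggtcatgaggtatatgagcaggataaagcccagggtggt

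Among 280 promoters of genes at least 8-fold higher in heart, 3.57% held a CArG box on either strand and 6.79% the MEF2 motif, the site known for the MEF2 family. The shares were 0.322% and 2.25% of 311 promoters of genes at least 8-fold higher in white fat, 1.28% and 1.70% of 9969 promoters of all genes tested, and 1.47% and 2.92% of all 32851 promoters in the table. CATTCC was in 13.6%, 11.6%, 10.9% and 12.6% of these sets in the same order, and AGATAA, read by GATA factors, in 11.8%, 5.47%, 6.14% and 9.99%. Motifs may overlap one another. These are descriptions of letters in a window of 250 bases, and a share does not show binding.

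Natriuretic peptide genes, whose hormones make the kidney excrete salt, read near the top of the scale. Nppa, the atrial peptide, stood at 14.67, 14.67 and 14.51 in heart and at 4.44, 4.42, 4.49 and 4.36 in white fat, at least 754-fold higher. Nppb, the B-type peptide, was at least 189-fold higher. Corin, the protease that cuts the Nppa precursor, read 11.77, 11.76 and 11.77 in heart, and 4.66, 6.27, 6.98 and 7.51 in white fat. The heart arrays were nearly equal while those of white fat spread widely, and the difference was 5.41 ± 0.56 (adjusted p = 1.82e-05, limma). Npr3, the receptor that clears natriuretic peptides, went the other way, at 9.09, 8.95 and 8.54 in heart and 13.02, 12.96, 13.04 and 12.78 in white fat, a 17.0-fold difference.

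Genes of calcium cycling separated heart from white fat over a wide range of folds. Pln (phospholamban), the brake on the calcium pump of the reticulum, read 12.87, 12.53 and 12.99 in heart and 4.65, 4.52, 4.55 and 4.52 in white fat, at least 214-fold higher. Hrc, a calcium-binding protein of the reticulum's lumen, was at least 472-fold higher, and Casq2, the cardiac calcium store protein, differed by 6.53, with 1 of 4 white fat arrays detecting it. The pump itself, Atp2a2, was detected in both tissues at 14.61, 14.64 and 14.66 against 10.87, 10.70, 10.76 and 10.88, a 14.3-fold difference, and Slc8a1, the sodium-calcium exchanger, differed 15.0-fold. A second, dimmer Atp2a2 probe differed by 4.71. The 1 gene of the list detected in both tissues and called higher in white fat was Asph, whose locus also encodes junctin, by a difference of -0.52. Its other 12 kept probes ranged from -3.21 to 6.54, so the gene has no single direction on this array.

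Of 11 channel and junction genes detected in both tissues, 9 were higher in heart, 7 of them at least 2-fold, and 2 (Gja5 and Fgf13) were not called, with a median difference of 1.33. Popdc2, a cyclic AMP-binding membrane protein of cardiac muscle, differed by 5.10 and Abcc9, the sulphonylurea receptor subunit of ATP-sensitive potassium channels, by 3.28. Bves, a relative of Popdc2, read 10.68, 10.80 and 10.62 in heart and was detected on no white fat array.

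Transcription factors of the cardiac lineage were read at moderate levels. Nkx2-5, the homeobox factor of heart progenitors and adult heart muscle, stood at 9.22, 9.35 and 9.13 against 4.78, 4.71, 4.88 and 4.70, at least 18.0-fold higher. Gata4 read 7.78, 8.03 and 7.44 and was at least 6.46-fold higher, Hand2 at least 6.08-fold, Prox1 at least 19.5-fold and Irx4, a ventricular homeobox factor, at least 13.7-fold. Esrrb, an orphan nuclear receptor related to the regulators of mitochondrial genes, was at least 40.2-fold higher. None of these 6 was detected on any white fat array. Myocd (myocardin), the coactivator of serum response factor, was detected in both tissues and differed by 2.24.

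Of the list's 9 genes detected in both tissues, 6 were higher in heart, 2 in white fat (Mef2a and Mef2c) and 1 (Tbx2) was not called, with a median of 0.88. Isl1, measured through white fat alone, was also called higher there. Mef2c, a regulator of muscle genes also known from endothelium and lymphoid cells, read 7.46, 7.52 and 7.15 in heart and 9.65, 9.67, 9.73 and 9.43 in white fat, and its other 2 kept probes differed in the same direction, by -2.72 and -1.51. Isl1, a marker of cardiac progenitors that also acts in other lineages, was detected on no heart array and read 5.48, 5.65, 6.09 and 6.88 in white fat, near the detection limit, and with cyclic loess normalization it no longer passed (adjusted p = 0.0781).

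**Figure D2:**
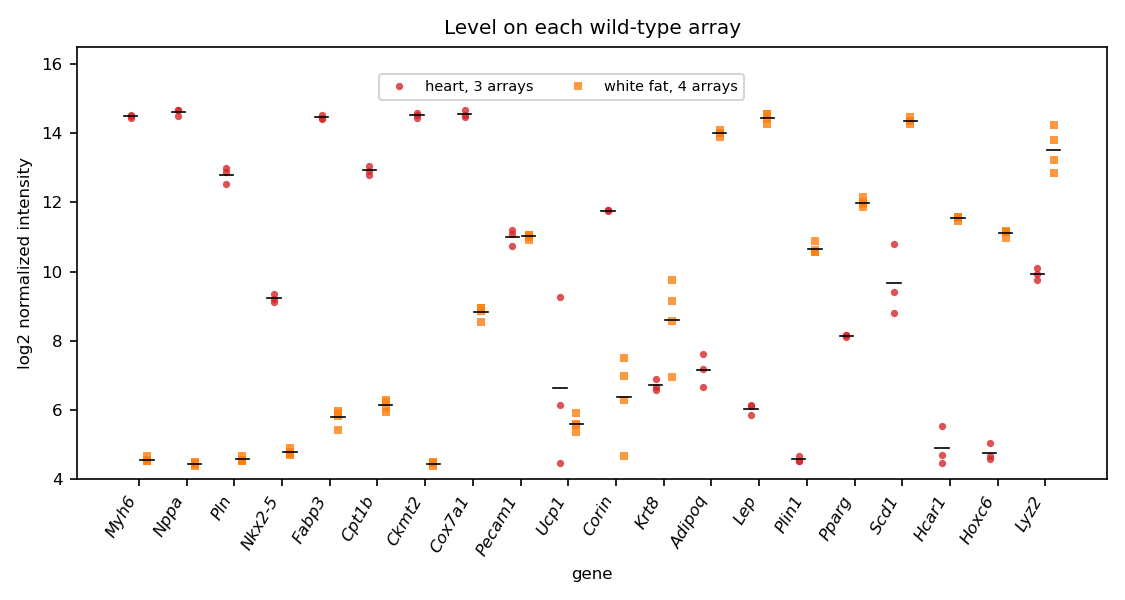
Level of 20 genes on each wild-type array as log2 normalized intensity (vertical). Red circles are the 3 heart arrays, orange squares the 4 white fat arrays, and bars the mean of each group. Groups are far apart for most genes shown, overlap for Pecam1 and Ucp1, and spread widely for Ucp1 in heart and for Corin and Krt8 in white fat.

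Genes that bring fatty acids to the mitochondria and oxidize them were mostly higher in heart. Fabp3, the fatty acid carrier of heart cytosol, read 14.41, 14.44 and 14.53 in heart and 5.41, 5.95, 5.83 and 5.92 in white fat. Cpt1b, the muscle form of the enzyme that lets fatty acids into mitochondria, read 12.81, 12.92 and 13.06 against 5.94, 6.06, 6.29 and 6.22. The tissues lay far apart, by 412-fold and 112-fold. Of 25 uptake and beta-oxidation genes detected in both tissues, 19 were higher in heart (15 at least 2-fold), 2 were higher in white fat (Slc27a4, and Ucp3 with 1 probe at -0.58 and another at 0.46) and 4 were not called (Cd36, Slc27a1, Acadl and Etfa), with a median difference of 1.37. Acadvl, the first dehydrogenase for very long chains, differed 4.53-fold and Hadhb, the thiolase subunit of the trifunctional protein, 4.38-fold. Mb (myoglobin), the oxygen store of red muscle, differed by 9.21 ± 0.13 (adjusted p = 4.36e-11, limma).

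The citric acid cycle list held 22 genes detected in both tissues, of which 21 were higher in heart, 20 at least 2-fold, with a median difference of 1.72. Got1, the cytosolic aspartate aminotransferase of the malate-aspartate shuttle, read 9.99, 10.01 and 10.31 against 5.21 to 5.40 in white fat. Got2, its mitochondrial partner, differed by 3.33 and Idh2, the NADP-dependent isocitrate dehydrogenase of mitochondria, by 3.05. The 1 gene higher in white fat was Idh3b, a subunit of the NAD-dependent enzyme, at 10.13, 10.30 and 10.25 in heart and 11.05 to 11.62 in white fat, a difference of -1.08.

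The respiratory chain was higher in heart almost throughout. All 33 genes of complex I detected in both tissues were called higher in heart, 26 by at least 2-fold, with differences from 0.49 to 3.83 and a median of 1.35. Ndufb2 had the largest, with levels of 10.64, 10.75 and 11.16 in heart and 6.92 to 7.13 in white fat. All 8 of complex III and cytochrome c were higher, with a median of 1.41, and Cycs, cytochrome c itself, differed by 2.81. Of 15 ATP synthase genes, 14 were higher in heart and 1 (Atp5b) was not called, with a median of 1.29. Atp5g1, a gene of the membrane ring, read 14.57, 14.56 and 14.56 in heart, near the top of the scale, and 10.75 to 10.91 in white fat.

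Complex IV was mixed. Of its 15 genes detected in both tissues, 12 were higher in heart, 2 were higher in white fat and 1 (Cox6b2) was not called, with a median of 0.99. The 2 were Cox6a1 and Cox8a, the forms known from tissues other than muscle. Cox6a1 read 12.16, 12.31 and 11.99 in heart and 13.53 to 13.71 in white fat, a difference of -1.46 ± 0.08 (adjusted p = 3.62e-07, limma), and a second probe gave -1.60. Mitochondrial ribosomal protein genes, which build the organelle's own translation machine, were higher in heart for 57 of 65, with a median of 0.92 that became -0.14 with the authors' scaled intensities. Mrps23 had the largest difference among them at 2.73. The 4 higher in white fat were Mrpl17, Mrps5, Mrps6 and Mrps22. Mrps5 differed by -1.14, but its other kept probe by 0.93.

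Use of ketone bodies and branched-chain amino acids did not lean one way. Of 15 genes detected in both tissues, 5 were higher in heart, 5 in white fat and 5 were not called, with a median of 0.06. The heart's 5 included the ketone enzymes Bdh1, which differed by 4.82, Oxct1 by 0.82 and Acat1 by 2.51. Oxct1 no longer passed with heart array 4 included (0.24, adjusted p = 0.693, limma). Dbt, a subunit of the branched-chain keto acid dehydrogenase, was higher in white fat, by a difference of -1.96, and its other probe differed by -0.17.

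Of 23 glycolysis and glycogen genes detected in both tissues, 18 were higher in heart, 3 in white fat (Pfkp, Pgam1 and Pygl) and 2 were not called (Slc2a4 and Ldha), with a median of 1.14. The insulin-regulated glucose transporter Slc2a4 read 9.82, 9.51 and 9.34 in heart and 9.68, 9.45, 9.70 and 9.68 in white fat. These groups overlapped, and the difference was -0.07 ± 0.12 (adjusted p = 0.603, limma). Slc2a1, the general glucose transporter, was 2.21-fold higher in heart, but -0.13 on the log2 scale with the authors' scaled intensities. With those, whose shift over all genes is -1.19, Slc2a4 differed by -1.17.

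Many of these proteins exist in pairs of which one gene is known from striated muscle and the other from other tissues. Both members were measured for 17 of 30 listed pairs. In 12 pairs the muscle member was called higher in heart and its partner higher in white fat. However, 10 of the 17 pairs hold a member that passed the filter through the tissue in which it is brighter, so that count is no support. Of the 7 pairs with both members detected in both tissues, 3 crossed in this way (Cox8b with Cox8a, Atp2a2 with Atp2a3, and Tmod1 with Tmod3). In 6 the member listed as the muscle form had the larger difference. These include Got1 with Got2, where the listed member is the cytosolic enzyme and not a muscle form. Tmod3 differed by only -0.25 (adjusted p = 0.0119, limma), and by 0.041 in heterozygotes. Ckm, the cytosolic creatine kinase of muscle, which buffers ATP, read 13.65, 13.57 and 13.60 in heart and was not detected in white fat, at least 373-fold higher. Its partner Ckb stood at 12.27, 12.27 and 12.23 in heart and at 12.78 to 13.09 in white fat. The mitochondrial form Ckmt2 was at least 706-fold higher in heart.

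Glycogen phosphorylase crossed too, with its muscle form measured through heart alone. Pygm, the muscle form, read 10.69, 10.94 and 10.69 in heart and was at least 52.4-fold higher. Pygl, the liver form, read 10.08, 10.22 and 10.03 in heart and 12.95, 12.92, 12.93 and 12.93 in white fat, 7.07-fold in the other direction. Pgam2, the muscle phosphoglycerate mutase, was detected on no white fat array and was at least 361-fold higher in heart, while the general form Pgam1 differed by -0.52. Cox6a2, detected on 2 of 4 white fat arrays, differed by 9.67 and Cox8b by 3.34, against -1.46 and -1.04 for their partners Cox6a1 and Cox8a. Cox7a1 differed by 5.74 and its partner Cox7a2 by 1.92, both higher in heart.

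Pairs outside metabolism were measured as well. Rpl3l, a muscle form of the ribosomal protein Rpl3, read 14.12, 14.05 and 14.18 in heart and was detected on no white fat array, at least 532-fold higher. Rpl3 stood at 12.53, 12.39 and 12.36 in heart and at 13.21 to 13.44 in white fat, a difference of -0.89. Actn1, the actinin of non-muscle cells, differed by -1.33, Myl6, a non-muscle myosin light chain, by -1.54, and Atp2a3, a calcium pump known from blood and epithelial cells, by -0.92. Eef1a2, the muscle and neuron form of elongation factor 1 alpha, differed by 7.62 ± 0.48, with white fat levels of 7.14 and 7.27 on arrays 1 and 2 and 5.53 and 5.19 on arrays 3 and 4. In Slc2a4 with Slc2a1 the muscle member had the smaller difference.

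**Figure D3:**
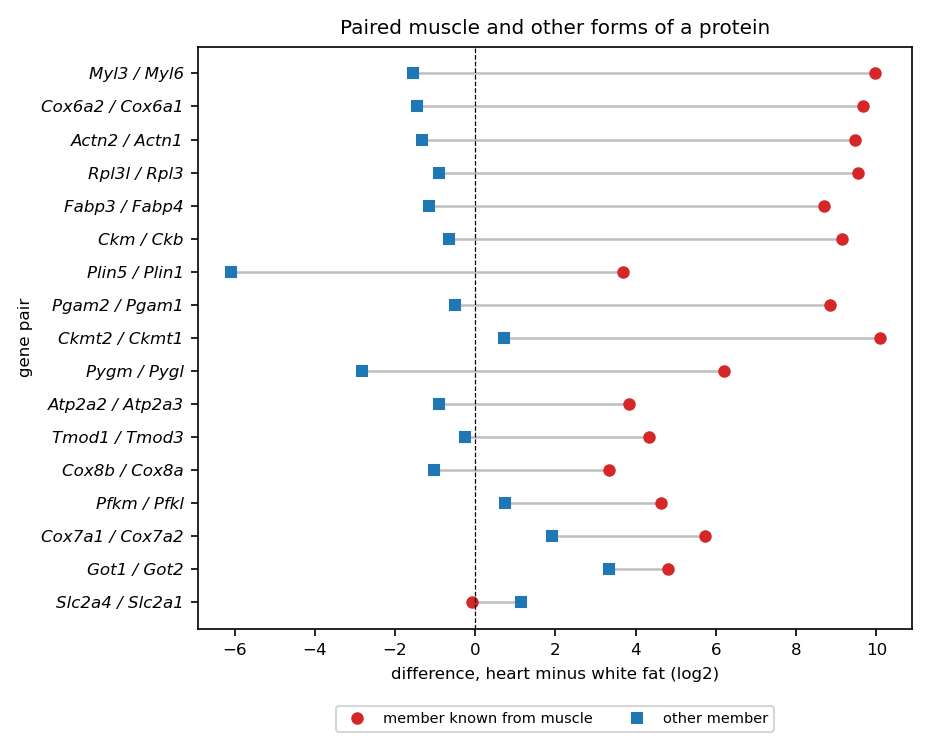
Difference between heart and white fat (horizontal, log2) of both members of 17 gene pairs, each pair on its own line and ordered by the gap between members. Red circles are the members listed as the muscle form (for Got1 with Got2, the cytosolic enzyme) and blue squares their partners. Red lies to the right of blue in 16 pairs, and the dashed line marks no difference.

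Small heat shock proteins, chaperones that protect filaments, added to the heart profile. Of 19 heat shock and chaperone genes detected in both tissues, 16 were higher in heart, 11 at least 2-fold, with a median of 1.27. Cryab (alpha-B crystallin) read 13.27, 13.08 and 13.49 in heart and 7.52 to 8.00 in white fat. Hspb7 differed by 5.57 ± 0.35, Hspb2 by 5.28 and Hspb6 by 3.63. White fat levels of Hspb7 spread from 6.33 to 8.01, with arrays 3 and 4 the lowest. The 1 gene higher in white fat was Dnajb1, and Hspa8 and Hsp90b1 were not called.

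White fat was marked by genes of the adipocyte's droplet, its lipid synthesis and its hormones, though not all listed adipocyte markers were bright. Fabp4 and Retn averaged 5.59 and 7.08 in white fat, and no heart array detected them. Fabp4 lay near the detection limit, with a lower bound of 0.094 on the log2 scale. Car3, a carbonic anhydrase abundant in adipocytes, read 14.57, 14.43, 14.60 and 14.53 in white fat and 4.43, 4.41 and 4.60 in heart, at least 524-fold higher. Lep (leptin), the satiety hormone, read 14.56, 14.56, 14.42 and 14.26 in white fat and 6.12, 6.12 and 5.85 in heart. All 3 heart arrays detected it, and the difference was -8.42 ± 0.10 (adjusted p = 1.95e-11, limma) or 343-fold. Adipoq (adiponectin), the insulin-sensitizing hormone, read 14.00, 14.02, 14.08 and 13.89 against 7.17, 7.60 and 6.67 in heart, 116-fold.

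The promoters of these hormones are shown as examples from the fat side. They are RefSeq's 250 bases before the start, at chr6:29059971-29060220 for Lep and chr16:23146286-23146535 for Adipoq, both on the plus strand of GRCm38.p6. Capitals mark TTNCNNAA, a loose form of the motif known for C/EBP factors, 55 and 81 bases before the start.

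Lep: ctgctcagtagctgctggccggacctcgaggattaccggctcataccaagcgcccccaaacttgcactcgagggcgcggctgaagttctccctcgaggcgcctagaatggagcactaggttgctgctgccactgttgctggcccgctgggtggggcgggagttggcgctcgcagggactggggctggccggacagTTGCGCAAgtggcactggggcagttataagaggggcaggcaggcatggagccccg

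Adipoq: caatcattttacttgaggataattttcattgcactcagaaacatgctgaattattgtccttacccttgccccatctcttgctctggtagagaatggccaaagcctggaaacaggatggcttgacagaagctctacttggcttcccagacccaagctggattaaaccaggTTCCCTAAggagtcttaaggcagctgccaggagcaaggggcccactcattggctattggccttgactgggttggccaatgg

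TTNCNNAA on either strand was in 35.4% of the promoters of genes at least 8-fold higher in white fat, in 23.6% of those at least 8-fold higher in heart, in 29.2% of the promoters of all genes tested and in 36.8% of all promoters in the table. The loose motif is common, so that its presence here is a description only.

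Of 17 lipid droplet and lipolysis genes detected in both tissues, 13 were higher in white fat, 12 at least 2-fold, and 4 were higher in heart, with a median of -2.25. Cidec, the protein that fuses droplets into one, read 14.41, 14.34, 14.40 and 14.40 in white fat and 6.66, 7.26 and 6.12 in heart, a 209-fold difference. Plin1 (perilipin 1), the droplet's hormone-controlled coat, read 10.57, 10.56, 10.89 and 10.62 and was detected on no heart array, at least 35.7-fold higher. Lipe, the hormone-sensitive lipase, differed by -4.86, though its second probe differed by -0.56, and Plin2, the coat protein of many cell types, by -2.89. Acvr1c, a receptor of the activin family, was at least 68.5-fold higher in white fat.

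The 4 droplet genes higher in heart were Plin5, Plin3, Cidea and Fitm2. Plin5, the perilipin known from oxidative tissues, read 11.12, 11.31 and 11.36 in heart and 7.15, 7.63, 7.83 and 7.71 in white fat, 12.8-fold, and its second probe differed by 1.51. Fitm1, a droplet-forming protein of striated muscle, was detected in heart only, at 9.38, 9.41 and 9.20, at least 19.3-fold higher. Both tissues thus expressed droplet genes, with different members leading.

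Synthesis of fatty acids and triglyceride leaned to white fat. Of 22 genes detected in both tissues, 19 were higher in white fat, 17 at least 2-fold, 1 was higher in heart and 2 (Me1 and Mlxipl) were not called, with a median of -2.27. Scd1, the desaturase that makes oleate, read 14.35, 14.28, 14.35 and 14.46 in white fat and 9.41, 10.80 and 8.80 in heart, a difference of -4.69 ± 0.38. Agpat2, an acyltransferase of triglyceride assembly, differed by -4.18, Gpd1, which supplies the glycerol backbone, by -3.56, Slc25a1, the mitochondrial citrate exporter, by -3.22, and Acaca, the first committed enzyme of fatty acid synthesis, by -3.03. Agpat3, another acyltransferase, was 2.57-fold higher in heart, which did not pass with the authors' scaled intensities. Of 7 genes of the pentose phosphate pathway and NADPH supply, 3 were higher in white fat, 1 in heart (Tkfc) and 3 were not called, with a median of -0.06. The 3 were Taldo1, Idh1 (a difference of -2.74) and the transketolase Tkt (-2.05, with other probes at -1.37 and -0.30).

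Cholesterol genes leaned the same way. Of 16 detected in both tissues, 11 were higher in white fat, 2 were higher in heart (Mvd and Dhcr7) and 3 were not called, with a median of -1.17. Hmgcs1, an early enzyme of the pathway, read 14.51, 14.35, 14.45 and 14.39 in white fat and 10.95, 10.74 and 11.09 in heart. Sqle, the squalene epoxidase, differed by -2.74.

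Some adipose genes varied between the heart arrays. Heart array 2 was the highest and array 3 the lowest for Adipoq, Cidec, Scd1 and Hp, the plasma haemoglobin binder that adipocytes also make (7.51, 8.09 and 6.88). This order was not general. Angptl4, Pparg and Hmgcs1 did not have array 2 above both others, and Lep had arrays 1 and 2 nearly equal. The log2 of the summed lipid droplet intensities had the same order but was nearly equal, at 14.864, 14.866 and 14.857. That list also holds genes higher in heart, such as Plin5. Ucp1, the uncoupling protein that defines brown fat, read 6.13, 9.26 and 4.46 in heart and 5.35 to 5.90 in white fat. It was detected on 2 of 3 heart arrays, the groups overlapped, and the difference was not called (1.02 ± 0.90, adjusted p = 0.321, limma). Without heart array 2 it was -0.33. The part of attached fat in the heart levels was not tested.

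**Figure D4:**
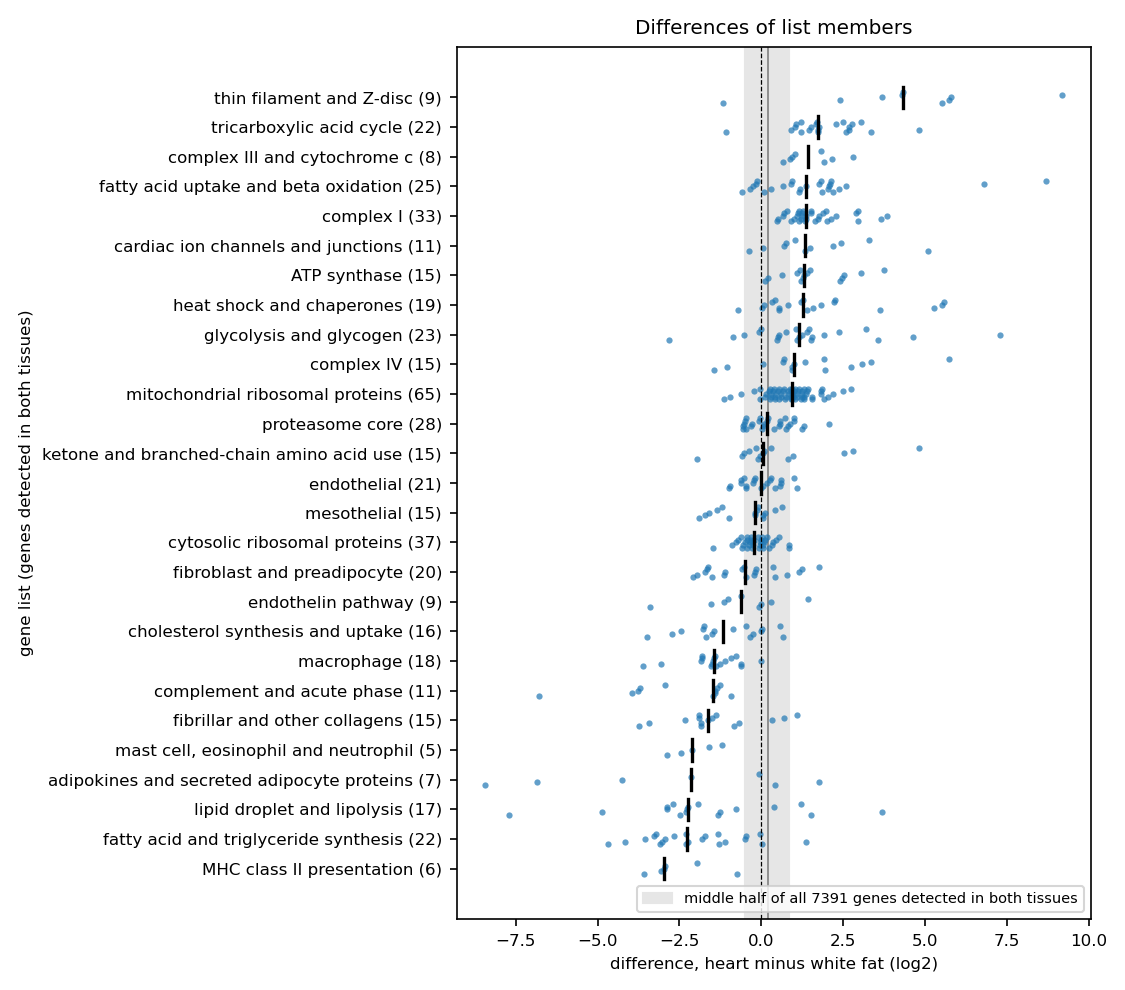
Difference between heart and white fat (horizontal, log2) of the members of 27 gene lists that were detected in both tissues. Points are genes, thick bars the list medians, numbers in brackets the genes shown, the grey band the range between the quartiles of all 7391 such genes and the grey line their median of 0.19. The citric acid cycle and respiratory chain lists lie to the right of the band's middle and the lipid synthesis, droplet and MHC class II lists to its left, with endothelial and proteasome lists between.

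Regulators of the adipocyte were split. Pparg, the master nuclear receptor of fat cell formation, read 12.15, 11.95, 12.00 and 11.87 in white fat and 8.16, 8.15 and 8.12 in heart, 14.4-fold, and its other 2 probes differed by -4.37 and -2.92. Cebpa, its partner factor, read 11.08, 10.77, 10.71 and 10.84 and was detected on no heart array, at least 40.7-fold higher. Of the list's 10 genes detected in both tissues, 5 were higher in white fat and 4 in heart. The 4 were Klf15, Rxrg, Tcf21 and Ppargc1b, and Klf15, a regulator of fasting metabolism, differed by 1.58 and Rxrg, a retinoid X receptor, by 1.96.

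Of 8 metabolite and hormone receptors detected in both tissues, 4 were higher in white fat, 3 in heart (Npr1, Agtr1a and Vdr) and 1 (Adipor1) was not called, with a median of -0.60. A further 8 were measured through white fat alone. Hcar1, the lactate receptor that restrains lipolysis, read 11.46, 11.57, 11.55 and 11.57 and was detected on no heart array, at least 65.7-fold higher. Ffar2, a receptor for short-chain fatty acids, differed by -6.72 ± 0.08 (adjusted p = 2.10e-11, limma), and Ffar4, a receptor for long-chain ones, was at least 22.1-fold higher. Irs2, an adaptor of the insulin receptor, was at least 14.0-fold higher in white fat, where it read 8.92 to 9.67.

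Secreted factors beyond leptin and adiponectin followed. Angptl4, an inhibitor of lipoprotein lipase, read 14.16, 14.15, 14.18 and 14.00 in white fat and 10.08, 9.94 and 9.59 in heart, 19.1-fold. Agt (angiotensinogen), the precursor of angiotensin, was at least 13.3-fold higher, and Rbp4, the retinol carrier, differed by -4.07, with 1 of 3 heart arrays detecting it. Nampt, an enzyme of NAD synthesis also found in blood, was the other way, at 8.78, 8.77 and 8.87 in heart and 6.96 to 7.25 in white fat. Acute phase proteins were high in white fat, Hp by 111-fold (its other 2 probes by -9.08 and -8.76 on the log2 scale) and Orm1 (orosomucoid), which 2 of 3 heart arrays detected, by 212-fold. All 11 complement and acute phase genes detected in both tissues were higher in white fat, 10 at least 2-fold, with a median of -1.48.

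Hox genes record position along the body axis. Of 32 on the array 20 were measured, 16 of them through white fat alone. Hoxc6 read 11.15, 11.18, 10.98 and 11.14 in white fat and was at least 48.9-fold higher. Hoxb7 was at least 11.3-fold and Hoxc9 at least 7.08-fold higher. Hoxd8 was detected in both tissues and differed by -2.77. Of the 4 detected in both, 3 were higher in white fat and Hoxc10 was not called. Hoxc4, called higher in heart, was detected on 2 of 3 heart arrays and 3 of 4 white fat arrays.

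Macrophage genes were mostly higher in white fat. Of 18 macrophage genes detected in both tissues, 16 were higher there, 13 at least 2-fold, with a median of -1.43, and Ms4a7 and Timd4 were not called. Lyz2, the lysozyme of macrophages and neutrophils, read 14.23, 13.81, 12.86 and 13.22 in white fat and 9.94, 10.10 and 9.75 in heart. Adgre1, a surface marker of macrophages, read 9.45, 9.34, 8.17 and 8.34 against 7.56, 7.33 and 7.24. Mrc1, the mannose receptor, and C1qa, a complement subunit, differed by -1.82 and -1.42. White fat arrays 1 and 2 stood above 3 and 4 for Lyz2 and Adgre1. The log2 of the summed macrophage intensities was 13.9 to 14.0 in heart and 16.1, 16.0, 15.4 and 15.5 in white fat.

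A second Lyz2 probe differed by -1.16, beside -3.60 for the first. Lymphocyte genes showed no common direction. Of 3 detected in both tissues, Cd3e, a chain of the T cell receptor complex, was higher in heart by 0.41 (adjusted p = 0.0487, limma). Cd3e averaged 5.66 in heart and 5.25 in white fat, near the detection limit, and 3 of 4 white fat arrays detected it. Il7r, a cytokine receptor, was higher in white fat and Cd79b was not called.

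Class II antigen presentation genes were mostly higher in white fat. H2-Ab1, a class II chain, read 12.55, 12.58, 11.39 and 11.08 in white fat and 8.99, 8.97 and 8.57 in heart, and H2-Eb1 11.66, 11.69, 10.88 and 10.68 against 8.59, 8.24 and 7.90. Again white fat arrays 1 and 2 were the higher ones, and the other 3 H2-Ab1 probes differed by -2.80 to -1.29. Of 6 class II genes detected in both tissues, 5 were at least 2-fold higher in white fat and Ctss was not called, with a median of -2.96. Of mast cell and granulocyte genes, 5 of 5 were at least 2-fold higher in white fat. Mcpt4, a protease of connective tissue mast cells, read 8.77, 8.68, 8.65 and 8.73 against 6.58, 6.38 and 5.82. The neutrophil pair S100a8 and S100a9, which form 1 complex, went opposite ways, by -2.87 and 1.37, and S100a9 was detected on 1 of 4 white fat arrays. In heterozygotes neither passed (-1.19 and 0.31, adjusted p = 0.279 and 0.818, limma).

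Endothelium was balanced. Pecam1, the adhesion molecule of all endothelium, read 11.20, 11.08 and 10.73 in heart and 11.01, 10.91, 11.07 and 11.07 in white fat, a difference of -0.01 ± 0.11 (adjusted p = 0.921, limma). The groups overlapped, though a second probe differed by 0.85. In heterozygotes Pecam1 was called higher in heart (0.33, adjusted p = 0.00228, limma). Of 21 endothelial genes detected in both tissues, 7 were higher in heart, 8 in white fat and 6 were not called, with a median of -0.01. Of the 21, 1 differed by at least 2-fold, Flt4, a receptor of lymphatic growth factors, at 1.07. Aqp1, the water channel of capillaries, was 1.99-fold higher in white fat.

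Collagens were mostly higher in white fat. Of 15 detected in both tissues, 12 were higher there, 10 at least 2-fold, 2 were higher in heart (Col4a4 and Col4a5) and Col4a3 was not called, with a median of -1.63. Col18a1, the basement membrane collagen that yields endostatin, read 12.71, 12.67, 12.49 and 12.27 against 8.94, 8.84 and 8.62. Col6a1 differed by -2.32, Col4a1 by -1.91 and the fibrillar Col1a1 by -1.63. Col4a5, a minor basement membrane chain, differed by 1.08, and by -0.29 with the authors' scaled intensities. Of 28 matrix glycoproteins, laminins and integrins, 12 were higher in white fat, 10 in heart and 6 were not called, with a median of -0.11. Sparc, a matrix protein that binds collagen, differed by -2.24, with a second probe at -8.49. Ccn2, a matrix protein induced by stretch, was 2.68-fold higher in heart. Of 20 fibroblast and preadipocyte genes, 11 were higher in white fat, 5 in heart and 4 were not called, with a median of -0.49.

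Mesothelial genes were found in both tissues and varied between arrays. Upk3b, a marker of mesothelium, read 10.46, 9.81 and 9.34 in heart and 11.07, 11.34, 11.36 and 12.11 in white fat, and wild-type bone arrays detected no Upk3b. Krt8, a keratin of simple epithelia, read 6.90, 6.64 and 6.57 in heart and 6.94, 8.57, 9.15 and 9.76 in white fat. Of 15 such genes detected in both tissues, 6 were higher in white fat, 1 in heart (Nkain4) and 8 were not called, with a median of -0.19. Of the markers of epididymis, lung and pancreas, Lcn5, Spag11a, Sftpc and Prss2 were detected on no array of either tissue, and Adam7 (epididymis) and Scgb1a1 (lung) on 1 of 4 white fat arrays each. Cela1, an elastase that is on the pancreas list and was detected in bone too, differed by -2.99.

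Genes of basic cell machinery lay near the middle. Of 37 cytosolic ribosomal protein genes detected in both tissues, 19 were higher in white fat, 6 in heart and 12 were not called, with a median of -0.22, and 1 differed by at least 2-fold. That gene was Rps6, the ribosomal protein that growth signals phosphorylate, at -1.48, and it no longer passed with heart array 4 included (adjusted p = 0.0659, limma). The sign of this median changed with scaling, to 0.05 with cyclic loess and 0.09 with median scaling. Of 28 proteasome genes, 14 were higher in heart and 7 in white fat, with a median of 0.18 beside 0.19 over all such genes, and of -0.67 with the authors' scaled intensities.

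Endothelin signalling, the pathway mutated in the series, was compared between the wild-type tissues. Endothelin 1 is a peptide made chiefly by endothelium, cut from its precursor by Ece1, and its receptors act through G proteins on calcium release. No probe was paired with Ednra, the mutated receptor, so its level is not analysed here. Edn1 read 7.49, 7.18 and 7.02 in heart and 7.98, 8.36, 8.72 and 8.37 in white fat, a difference of -1.13 ± 0.18 (adjusted p = 0.000358, limma). Ednrb, the type B receptor, read 10.14, 9.94 and 9.99 against 11.44, 11.64, 11.58 and 11.54, a 2.88-fold difference, with other probes at -0.80 and -0.37. Ece1 differed by -0.62, with a second probe at -2.35, and did not pass with heart array 4 included (adjusted p = 0.0525, limma).

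The list's G protein genes were higher in white fat by widely differing amounts, and Gna12 and Gna13 were measured through white fat alone. Gnas, a G protein gene chosen after its values were seen, had kept probes at 4.58 and 4.99 in heart, where no array detected them. White fat read these at 9.38 and 10.8 and bone at 8.52 and 10.2. The part of such probes in the differences below was not tested. Gnaq, the alpha subunit that couples to phospholipase C, read 5.70, 6.74 and 6.93 in heart and 9.81, 9.78, 9.98 and 9.89 in white fat, and its second probe differed by -0.88 against -3.41 for the first. Gna11, a close relative, differed by -1.02. Gna12 was at least 6.79-fold higher in white fat and Gna13 differed by -4.07, with 1 of 3 heart arrays detecting it. Prkca, a protein kinase C, was the 1 gene of the list called higher in heart, at 7.61, 7.67 and 7.12 against 5.99 to 6.12, though with the authors' scaled intensities Prkca differed by 0.027 and did not pass. Of 9 genes detected in both tissues, 5 were higher in white fat, 1 in heart and 3 (Ece2, Plcb3 and Plcb4) were not called, with a median of -0.62.

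The same contrast was made on separate arrays of heterozygous mice, 4 of heart and 4 of white fat. There 7351 of 9550 genes (77.0%) passed, 40.3% higher in heart and 36.7% in white fat. Of the 7074 genes called in wild type and measured in heterozygotes, 6850 (96.8%) had the same sign and 6110 passed with it. Of 3545 genes at least 2-fold apart, 3530 had the same sign. Across the 9510 genes, which are not independent replicates, the differences of both genotypes had a Pearson correlation of 0.966. Some list medians moved little and others more. Complex I had a median of 1.27 in heterozygotes beside 1.35 in wild type, the citric acid cycle 1.57 beside 1.72 and lipid synthesis -2.45 beside -2.27. Mesothelial genes had -1.58 beside -0.19, MHC class II genes -1.87 beside -2.96 and collagens -0.97 beside -1.63. Cardiac ion channel and junction genes had 2.19 beside 1.33, and pentose phosphate genes -0.83 beside -0.06. None of these differences between list medians was tested.

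Whether the tissue difference itself depended on genotype was tested over all 15 arrays by an interaction term, which passed for 389 of 9820 genes (3.96%). Itga1, a collagen-binding integrin chain, had the smaller tissue difference in heterozygotes, by 0.90 ± 0.12 (adjusted p = 0.00972, limma). Its mean levels were 7.13 ± 0.09 (SD, n = 3) and 8.52 ± 0.09 (SD, n = 4) in wild-type heart and white fat, and 7.48 ± 0.05 and 7.97 ± 0.11 (SD, n = 4 each) in heterozygotes. Tmem150a, a membrane protein that regulates a lipid kinase at the plasma membrane, and Cirbp, a cold-inducible RNA-binding protein, had interaction terms of -0.97 and -0.93. Macrophage genes had a median difference of -0.82 in heterozygotes and -1.43 in wild type, and Lyz2 an interaction of 2.16 ± 0.39 (adjusted p = 0.0256). Slc2a4, not called in wild type, differed by 0.80 in heterozygotes, with an interaction of 0.88 ± 0.21 (adjusted p = 0.0376).

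**Figure D5:**
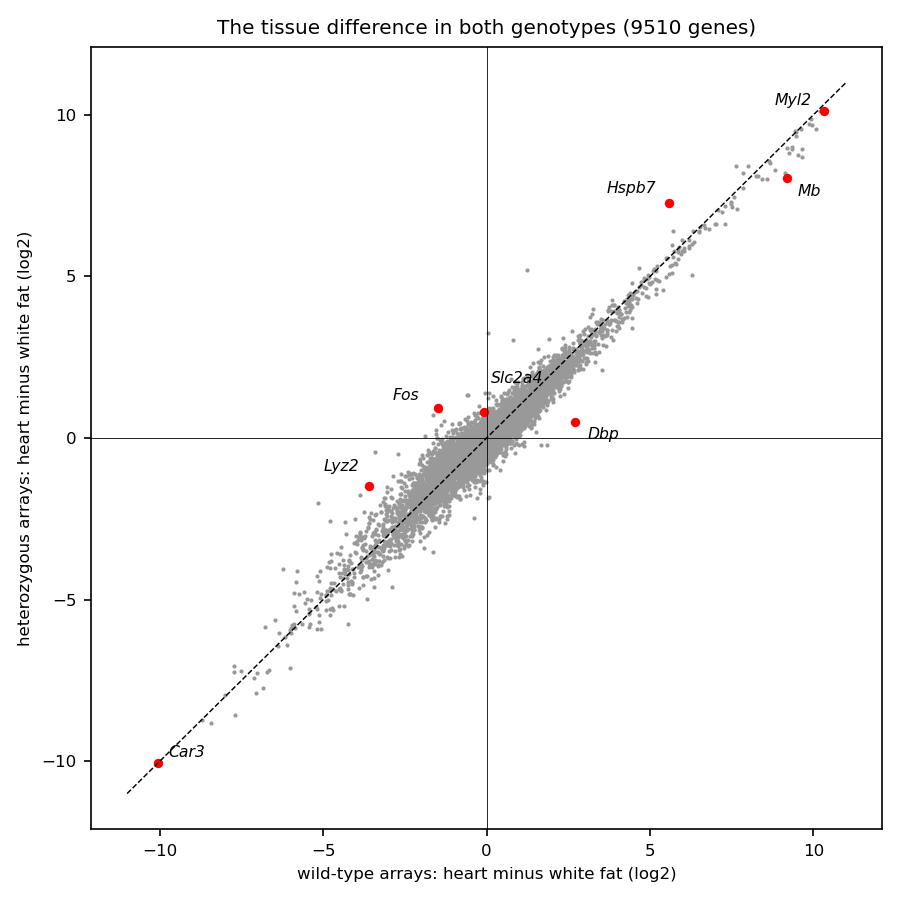
Difference between heart and white fat of 9510 genes in wild-type (horizontal) and heterozygous arrays (vertical), both in log2. Points are genes, the dashed line marks equal differences, and red points are named. Most genes lie along the line, with Fos, Dbp and Lyz2 among those away from it.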

How the data were processed

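Transcripts were measured on Illumina MouseRef-8 bead arrays, with amplification to biotin-labelled cRNA per the labels' protocols and GenomeStudio 2011.1 per the submitters' processing notes. The authors deposited raw intensities, and a second table of background-subtracted, tissue-wise scaled intensities with a detection p-value per probe. What each table holds was read from its values, and it is the reverse of what the tables' names and the planned design assumed. No label or header describes how that scaling was done.

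The raw intensities of 7 arrays were background-corrected by normexp with detection p-values, raised by an offset of 16, quantile-normalized and put on a log2 scale (limma 3.58.1, R 4.3.3). A probe was kept with a detection p under 0.05 on at least 3 arrays of either tissue (13758 of 25697). Of all probes, 23978 carry 1 gene symbol and 1719 none, for 16593 genes. The kept probe with the highest mean stood for its gene. Heart and white fat were compared by limma's moderated test with a variance trend, with Benjamini-Hochberg adjustment over 9510 genes and calls at an adjusted p of 0.05. Errors after ± are standard errors unless called SD. The p-values measure the spread between these arrays, whose number limits the precision.

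The arrays, gene lists, pairs and members were chosen with earlier results of these data known. Named genes are the 12 with the largest difference per direction, up to 8 of each list and up to 4 called against its median, all pair, endothelin and marker genes, 6 bright genes with the smallest difference, and 6 per direction by interaction p. Genes outside this, named for a count of few genes or singled out, were chosen after their values were seen. Same-numbered heart and white fat arrays come from different animals, and their deviations correlated at 0.05, -0.02 and 0.05, so numbers do not pair the arrays. On values simulated for this comparison over 9510 genes, 56% of 50 genes changed 1.5-fold and 86% of 50 changed 2-fold were recovered. Of those changed 4-fold or 8-fold, 100% were recovered, and there were 12 false calls. The simulation changed few genes, while 75.9% were called in the data, and its noise was drawn after normalization. Its rates therefore need not hold for the data, and it does not cover shifts of scaling or lost probes. Promoters were searched on both strands in the 250 bases before the start. Alternatives covered background, scaling, filter, probe choice, model and arrays.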

Additional observations from a re-analysis of the deposited data

Results flagged for a closer look

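Among 178 genes checked, 10 had 1 white fat array far from the other 3 by Dixon's test, which chance gives for about 1 group in 20. Array 1 was high for Cycs (6.36, next 5.94) and Nampt (7.25, next 6.99) and low for Hspb6 (10.86, next 11.06). Array 2 was high for Actn1 (10.85, next 10.66) and low for Slc2a4 (9.45, next 9.68). Array 3 was high for Ffar2 (12.55, next 12.32) and Cry2 (9.13, next 8.85) and low for Pgam1 (9.08, next 9.21). Array 4 was low for Cox8a (13.83, next 13.92) and Angptl4 (14.00, next 14.15).

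The tissue difference changed with genotype by limma's interaction test for 389 genes over the series, and for 16 of the 178. The term is the heterozygous minus the wild-type difference on the log2 scale. It was positive for Fos (2.39), Lyz2 (2.16), Itga1 (0.90), Mrc1 (0.89), Slc2a4 (0.88), Col18a1 (0.68), Idh1 (0.59), Agpat2 (0.59) and Col4a1 (0.40). It was negative for Dbp (-2.21), Acaca (-1.04), Tmem150a (-0.97), Cirbp (-0.93), Tkt (-0.86), Slc25a1 (-0.69) and Atp5g1 (-0.33). Adjusted p-values ran from 0.00972 to 0.0471.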

How the results depend on the processing

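Of 108 counts recomputed under alternatives, 98 stayed within 1.5 times of the reported count. Of the recomputed list medians, 557 stayed within the spread between arrays, 113 moved beyond it and 5 reversed. Of the recomputed gene results, 4352 kept their direction and call, 18 lost the call, 4 gained it and 15 reversed. Without background correction 873 genes were at least 2-fold higher in heart and 952 in white fat. Median scaling gave 2439 genes higher in heart, 1162 of them at least 2-fold. The authors' scaled intensities gave 1051 higher in heart and 7363 higher in white fat, 572 and 5409 at least 2-fold. Requiring detection in both tissues left 1076 genes at least 2-fold higher in white fat, and testing every probe gave 2766, by fewer genes and more probes tested. Leaving out 1 array at a time gave 3653 to 3781 genes higher in heart and 3181 to 3398 in white fat, 1770 to 1883 and 1688 to 1794 at least 2-fold. With the replicate number as a block 3713 and 3295 genes passed. With heart array 4 put back, 3329 genes were higher in heart and 2713 in white fat. Of the 7219 genes called, 5915 then passed with the same sign.

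Some directions reversed, and the cause was not tested. The ribosomal protein median became 0.051 with cyclic loess, 0.089 with median scaling and 0.22 with scaling to ribosomal protein genes. With the authors' intensities Slc2a1 was -0.13, Ucp1 -0.0087, Col4a5 -0.29, the mitochondrial ribosomal median -0.14 and the proteasome median -0.67. Slc2a4 became 0.0049 with array weights and 0.80 in heterozygotes. Pecam1 became 0.066 with array weights and 0.0054 with the replicate block. It passed as higher in heart in heterozygotes (0.33, adjusted p = 0.00228, limma). As a mean over probes, an alternative chosen after seeing the data, it also passed (0.42, adjusted p = 0.000938, limma). Fos was 0.91 in heterozygotes. Leaving out 1 array at a time gave -0.20 to 0.037 for Slc2a4 (above 0 without heart replicate 3), -0.11 to 0.12 for Pecam1 (above 0 without heart replicate 3, and by 0.0059 and 0.0055 without white fat replicates 3 and 4) and -0.33 to 2.13 for Ucp1. The Ucp1 value was lowest without heart replicate 2 and passed the test without heart replicate 3. Probes at background give bounds only, and probes lost on the arrays of 1 tissue limit what a low level there shows.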

Other observations

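Imprinted genes, of which mostly 1 parental copy is active, differed in both directions. Of 11 detected in both tissues, 5 were higher in heart and 6 in white fat, beside 45.3% and 32.0% over all such genes. Mest, a growth-linked hydrolase of adipocytes, read 11.56, 11.30, 11.10 and 10.58 in white fat and 7.04, 7.36 and 7.37 in heart. Nnat (neuronatin) read 13.18, 12.94, 13.45 and 13.49 in white fat and was detected on no heart array, at least 217-fold higher, with a second probe at -5.16 on the log2 scale. Igf2, a growth factor, and its clearing receptor Igf2r were higher in heart, by 1.79 and 1.98 on the log2 scale.

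Clock genes keep daily time. Of 13 detected in both tissues, 6 were higher in heart, 4 in white fat and 3 were not called, shares close to those over all genes. Dbp, a clock output factor, read 11.94, 11.67 and 11.23 in heart and 8.27, 8.35, 9.72 and 9.31 in white fat, where arrays 1 and 2 were the lower ones. Nr1d2, a clock repressor, differed by 2.02, Cry2 by -1.04 and Clock by -0.93, with a second Clock probe at -2.40. The hour of dissection was not used here, and its part in these values was not tested. Fos and Egr2, early response genes, differed by -1.47 and -1.51 in wild type and by 0.91 and -0.0076 in heterozygotes.

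Among 23 genes of Wnt, TGF-beta, BMP and FGF signalling, 7 were higher in heart, 9 in white fat and 7 were not called, with a median of 0.04. For 22 of oxygen and radical handling these numbers were 7, 8 and 7, with a median of 0.02. Neither list had a common direction, and single genes differed widely. Ccnd2, a cyclin of the G1 phase, read 12.37, 12.42, 12.45 and 12.46 in white fat and was at least 121-fold higher. Fgf10, a growth factor that acts on preadipocytes, differed by -3.52. Dkk3, a secreted relative of Wnt inhibitors, was higher in heart by 4.44. Sod3, the extracellular superoxide dismutase, and Gpx1, a glutathione peroxidase, differed by -3.45 and -2.35, while Nqo1, a quinone reductase, and Txn2, the mitochondrial thioredoxin, were higher in heart by 2.63 and 1.92.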
